A study of Mus musculus with 8 samples.

Results

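Mitochondrial ribosomal proteins are the protein parts of the mitoribosome, the ribosome that translates the few messenger RNAs of the mitochondrial genome. All of them are encoded in the nucleus, translated in the cytosol and imported into mitochondria, where they assemble with ribosomal RNAs that the mitochondrial genome itself encodes. Some descend from proteins of the bacterial ribosome and others are particular to mitochondria. The proteins they make are subunits of the respiratory chain and of ATP synthase. In the mouse the early embryo does not replicate its mitochondrial DNA and lives on the mitochondria it received from the oocyte, and the 2-cell stage is when the embryo's own genome takes over transcription from the RNA the oocyte left behind. The members were the genes whose symbol begins with Mrpl (large subunit) or Mrps (small subunit) followed by a digit, with pseudogenes left out. This gave 77 genes, 48 Mrpl and 29 Mrps, of 37310 gene identifiers in the tables, and 4 pseudogenes that met the naming rule were set aside.

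RNA was measured by RNA-seq in 8 pools of 2-cell mouse embryos of the C57BL/6N strain. In 4 pools the embryos were Gadd45a/Gadd45b double knockouts (DKO), and in the other 4 they were wild-type (WT). Gadd45a and Gadd45b encode small proteins induced by stress, with ties to cell cycle arrest, repair and demethylation of DNA. The DKO line came from crossing single knockout lines and then double heterozygotes, and the sources used here do not give the deleted parts. Embryos came from superovulated, naturally mated females of 3 to 4 weeks of age, WT or DKO themselves, 20 h after the vaginal plug, so loss of the maternal and of the embryonic gene products cannot be told apart. Each pool held embryos of 1 litter, at 23, 27, 28 and 35 embryos in the DKO pools and 23, 30, 25 and 25 in the WT pools. Poly(A) RNA of whole pools was read, so fewer cells and less RNA per cell cannot be told apart.

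Libraries held 21329736 to 23919114 counts, and 18433 to 20427 genes had a count. Gadd45b had 1 to 14 counts in the DKO libraries and 808 to 1395 in the WT libraries. Gadd45a, whose deleted part is unknown, had 163 to 247 counts in the DKO libraries and 341 to 502 in the WT libraries. Markers fixed for the tissue were present: 8 genes of 2-cell embryos summed to 2782 to 4037 CPM (a gene's share of the counts in its library, after TMM scaling) in the DKO pools and 2121 to 3585 CPM in the WT pools. The 8 oocyte-derived transcripts summed to 11797 to 20146 CPM in the DKO pools and 6997 to 12103 CPM in the WT pools, and 7 of the 8 had a positive log2 fold change (median 0.53). Their part in the results that follow was not tested. Cumulus and granulosa cell markers summed to 79.6 to 112 CPM in the DKO pools and 91.4 to 153 CPM in the WT pools. Amh, Foxl2, Inhba and Ptx3 stood at 0 in every library. Only 4 of these 10 markers were tested, with 3 positive and a median log2 fold change of 0.16, so the sums do not describe each marker. Sperm markers summed to at most 1.185 CPM in any pool, with Smcp at 0. Blood markers, from a list of globins and Ptprc, stood out in 1 pool of each genotype. They summed to 130 CPM in DKO pool 4 and 112 CPM in WT pool 1, against at most 3.04 CPM in the other pools. DKO pool 1 stood apart: it held the lowest value of the 8 pools for 25.1% of all tested genes and the highest for 27.1%, and results are therefore given with and without it.

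The question of the comparison was which transcripts differ between DKO and WT 2-cell embryos. No mitochondrial ribosomal protein gene passed edgeR's quasi-likelihood test at an adjusted p of 0.05 in either direction, and DESeq2 called 1, Mrps12, lower in DKO. Most members had somewhat lower values in the DKO pools: 65 of the 76 tested had a negative log2 fold change (85.5%), against 48.8% of all 14970 genes tested. Their median log2 fold change was -0.27, with quartiles of -0.33 and -0.14, against a median of 0.01 over all genes. The background of calls was thin, as edgeR called 0.02% of genes lower and 0.00668% higher, and DESeq2 called 0.12% lower and 0.194% higher. At an unadjusted p under 0.05, 11 members were lower (14.5%), against 4.44% of all genes, and 0 were higher, against 5.8% of all genes. In 5 members every DKO pool lay below every WT pool (6.58%), against 2.55% of all genes, and in 0 members did every DKO pool lie above every WT pool, against 2.79% of all genes. These shares describe genes that vary together, as shown further on, and are not independent counts.

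**Figure D1:**
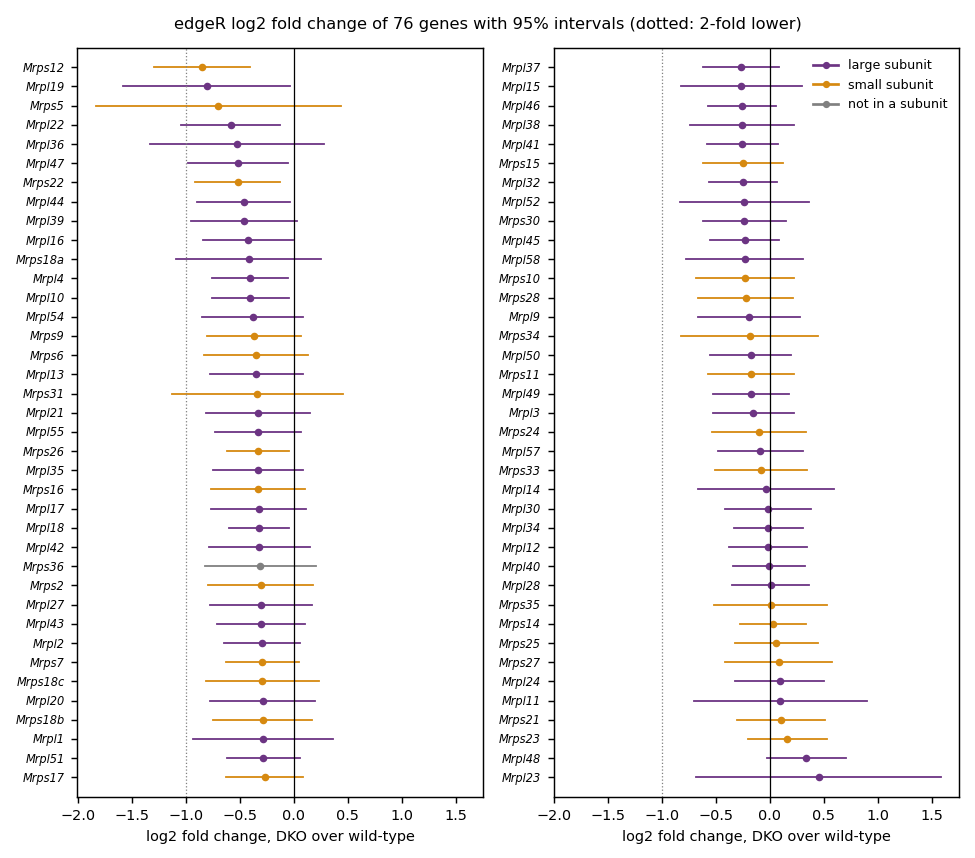
Each dot is the log2 fold change (DKO over WT) of 1 of the 76 tested genes, with a 95% interval derived from edgeR's test. Dots are coloured by ribosomal subunit and ordered from the most negative to the most positive. The dotted line marks a 2-fold lower level. Of the 76 dots, 65 lie left of 0, and 11 intervals leave out 0.

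The precision bounded the size of these differences. The median 95% interval reached 0.43 to either side on the log2 scale, against 0.58 over all genes tested. In 69 of the 76 members the interval left out a 2-fold lower level in DKO, as it did in 11630 of all 14970 genes. The 7 members whose interval reached further were Mrps12, Mrpl22, Mrpl19, Mrps5, Mrpl36, Mrps18a and Mrps31, named after their values were seen. The member that was not tested, Mrpl53 of the large subunit, had 0, 2, 1 and 0 counts in the DKO pools and 0, 0, 1 and 1 counts in the WT pools, too few for a fold. Mrpl33 was not analysed here.

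The size of the difference, more than its direction, depended on single pools. It shrank most without DKO pool 1, where the log2 fold change was negative in 64 of 76 members, but the median was -0.16. Lower at an unadjusted p under 0.05 were 6 members (7.89%, against 3.25% of all genes). Leaving out other single pools also moved that count by more than 1.5 times. It was 24 without DKO pool 2 (31.6%, against 6.20% of all genes) and 6 without DKO pool 3 (7.89%, against 4.12%). It was 4 without WT pool 1 (5.26%, against 3.15%) and 5 without WT pool 2 (6.58%, against 2.91%). Without WT pool 4 the count was 8 (10.5%, against 3.19%), 60 of 76 members were negative and the median was -0.19. The median stayed between -0.37 and -0.16 over the 8 fits that each left out 1 pool.

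Mrps12 had the smallest p of the members. It encodes a protein of the decoding centre of the small subunit, the counterpart of bacterial S12. Mrps12 stood at 11.97, 14.3, 17.8 and 12 CPM in the DKO pools and at 26.7, 22.7, 20.98 and 30.8 CPM in the WT pools. The genotypes did not overlap, and the mean level was 14.0 ± 2.77 CPM in DKO and 25.3 ± 4.38 CPM in WT (SD, n = 4 each). Its log2 fold change was -0.85 ± 0.21 (SE), a level 44.5% lower in DKO, and edgeR's adjusted p was 0.394. DESeq2 gave Mrps12 an adjusted p of 0.0299. Over 18 alternative settings the adjusted p ran from 0.0299 to 0.769, with 1 passing, and the log2 fold change from -0.99 to -0.70. The exons of Mrps12 overlap no other gene of the tables, and no near-identical transcript copy was found.

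Mrps22, a mitochondria-specific protein of the small subunit whose human counterpart is mutated in a mitochondrial disease, was the next by p. Mrps22 had 51.2, 87.4, 87.3 and 81.9 CPM in the DKO pools, against 113, 118, 88.3 and 122 CPM in the WT pools. The genotypes did not overlap, though WT pool 3 lay just above the highest DKO pools, and the log2 fold change was -0.52 ± 0.18 (SE, edgeR's adjusted p = 0.469). Mrpl22, which lines the tunnel through which the growing protein leaves the large subunit, had 61.7, 155, 99.1 and 108 CPM in the DKO pools, against 155, 168, 144 and 169 CPM in the WT pools. DKO pool 2 reached the WT range, and the log2 fold change was -0.59 ± 0.22 (SE, edgeR's adjusted p = 0.469). A pseudogene, Gm6997, carries a near-identical copy of the Mrpl22 transcript, so reads of the gene may be undercounted.

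Mrps26 and Mrpl18 showed smaller differences with little spread. Mrps26, a mitochondria-specific protein of the small subunit, had 139, 170, 163 and 163 CPM in the DKO pools, against 211, 205, 194 and 188 CPM in the WT pools. Mrpl18, a large subunit protein of the central protuberance, had 190, 200, 194 and 193 CPM in the DKO pools, against 243, 220, 246 and 260 CPM in the WT pools. In neither gene did the genotypes overlap. Their log2 fold changes were -0.33 ± 0.13 for Mrps26 and -0.32 ± 0.13 for Mrpl18 (SE, edgeR's adjusted p = 0.471 for each). The exons of Mrpl18 overlap those of Tcp1 on the other strand, and a repeated stretch of Mrps26 recurs in many other transcripts and in the pseudogene Gm9063, so both values are uncertain.

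The promoters of some of these genes show how they are built. Promoters of mitochondrial ribosomal protein genes are known for sites of the transcription factors NRF1, YY1 and the ETS family, and the stretches below are the 100 bases before the annotated start, 5′ to 3′ on the gene's strand, from RefSeq on GRCm38.p6. Capitals mark the letters CCGGAAG of an ETS site, or its reverse complement CTTCCGG, and the NRF1 pattern, GCGCA and GCGC with any 1 letter between. Only matches wholly within the 100 bases are marked. An NRF1 match of Mrps26 begins 2 bases before the start, runs past it and is not in capitals. They are shown for Mrps12, which DESeq2 called, for members with small p and an ETS or NRF1 match near the start, and for Mrpl44, described further on. Mrpl18, Mrpl10, Mrpl47 and Mrpl16, also lower at an unadjusted p under 0.05, had no match in these 100 bases and are not shown. Mrpl4 and Mrpl19, lower at that p as well, had no promoter entry.
Mrps12, chr7:28741822-28741921, minus strand: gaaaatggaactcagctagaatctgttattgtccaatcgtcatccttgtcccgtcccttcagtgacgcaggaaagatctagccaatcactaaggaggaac
Mrps22, chr9:98601680-98601779, minus strand: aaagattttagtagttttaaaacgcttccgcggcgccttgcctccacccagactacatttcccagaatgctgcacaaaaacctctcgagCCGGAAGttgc
Mrpl22, chr11:58171564-58171663, plus strand: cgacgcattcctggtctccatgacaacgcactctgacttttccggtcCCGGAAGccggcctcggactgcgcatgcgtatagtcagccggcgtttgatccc
Mrps26, chr2:130563657-130563756, plus strand: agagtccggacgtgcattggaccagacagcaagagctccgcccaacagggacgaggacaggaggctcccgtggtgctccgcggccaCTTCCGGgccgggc
Mrpl44, chr1:79775918-79776017, plus strand: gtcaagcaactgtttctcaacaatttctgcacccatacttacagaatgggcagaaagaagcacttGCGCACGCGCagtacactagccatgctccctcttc

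Motifs were counted on both strands in windows of 250 bases before to 50 bases after the start, which RefSeq gave for 68 members. The ETS letters CCGGAAG stood in 25 members (36.8%), against 18.9% of the 10729 tested genes with a window and 9.93% of all 27025 genes with a window. The NRF1 pattern stood in 13 members (19.1%), against 10.9% of tested genes and 5.19% of all. The YY1 letters AAGATGGC stood in 12 members (17.6%), against 5.11% of tested genes and 3.19% of all. At least 1 of the 3 stood in 42 members (61.8%), against 30.7% of tested genes and 16.4% of all. Members with and without a match had medians close to each other: the median log2 fold change was -0.28 with any of the 3 and -0.26 without. By motif it was -0.29 with the ETS letters and -0.26 without, -0.23 with the NRF1 letters and -0.29 without, and -0.28 with the YY1 letters and -0.27 without. Mrps12 had no match in the 100 bases shown, and in its whole window an ETS match at the start and a YY1 match further upstream.

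The other members lower at an unadjusted p under 0.05 were all of the large subunit. Mrpl4, which reaches into the exit tunnel, had 76.0, 101, 88.6 and 104 CPM in the DKO pools, against 143, 130, 94.2 and 122 CPM in the WT pools. Only WT pool 3 fell within the DKO range, and the log2 fold change was -0.40 ± 0.17 (SE, edgeR's adjusted p = 0.471). Mrpl10, the base of the flexible stalk that recruits translation factors, had 32.5, 29.6, 31.8 and 36.0 CPM in the DKO pools, against 48.3, 47.1, 39.6 and 36.5 CPM in the WT pools. The groups were separated by a narrow gap, the exons overlap those of Gm11574, which had 0 counts, and the log2 fold change of Mrpl10 was -0.40 ± 0.17 (SE, edgeR's adjusted p = 0.471). Mrpl12, the stalk protein that Mrpl10 anchors, stood beside it for comparison, chosen after its values were seen: it averaged 94.6 ± 20.5 CPM in DKO and 95.6 ± 1.44 CPM in WT (SD, n = 4 each). Its log2 fold change was -0.01 ± 0.17 (SE, edgeR's adjusted p = 0.98).

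Mrpl44, which carries a fold related to ribonuclease III, had 33.6, 54.4, 57.5 and 56.7 CPM in the DKO pools, against 82.4, 65.5, 51.7 and 79.6 CPM in the WT pools. DKO pool 1 lay far below the other DKO pools, and WT pool 3 lay below 3 of the 4 DKO pools (log2 fold change -0.47 ± 0.20, SE, edgeR's adjusted p = 0.476). Mrpl47, found beside the exit of the tunnel, had 20.7, 43.2, 29.9 and 23.7 CPM in the DKO pools, against 45.7, 42.0, 37.4 and 43.3 CPM in the WT pools. DKO pool 2 lay among the WT pools, and the log2 fold change was -0.52 ± 0.22 (SE, edgeR's adjusted p = 0.471). Mrpl19, at the interface of the subunits, was a weakly expressed gene with 2.28, 5.70, 10.2 and 4.53 CPM in the DKO pools, against 8.50, 13.1, 9.37 and 8.71 CPM in the WT pools. DKO pool 3 exceeded 3 of the 4 WT pools, and the log2 fold change was -0.81 ± 0.36 (SE, edgeR's adjusted p = 0.48). The exons of Mrpl19 overlap those of Gcfc2, the exons of Mrpl47 those of Actl6a and Ndufb5, and the exons of Mrpl44 those of Wdfy1, each on the other strand, so these values are uncertain. Mrpl16, the last of the 11 and named after its values were seen, stood at a log2 fold change of -0.43 ± 0.20 (SE; edgeR's adjusted p = 0.482).

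**Figure D2:**
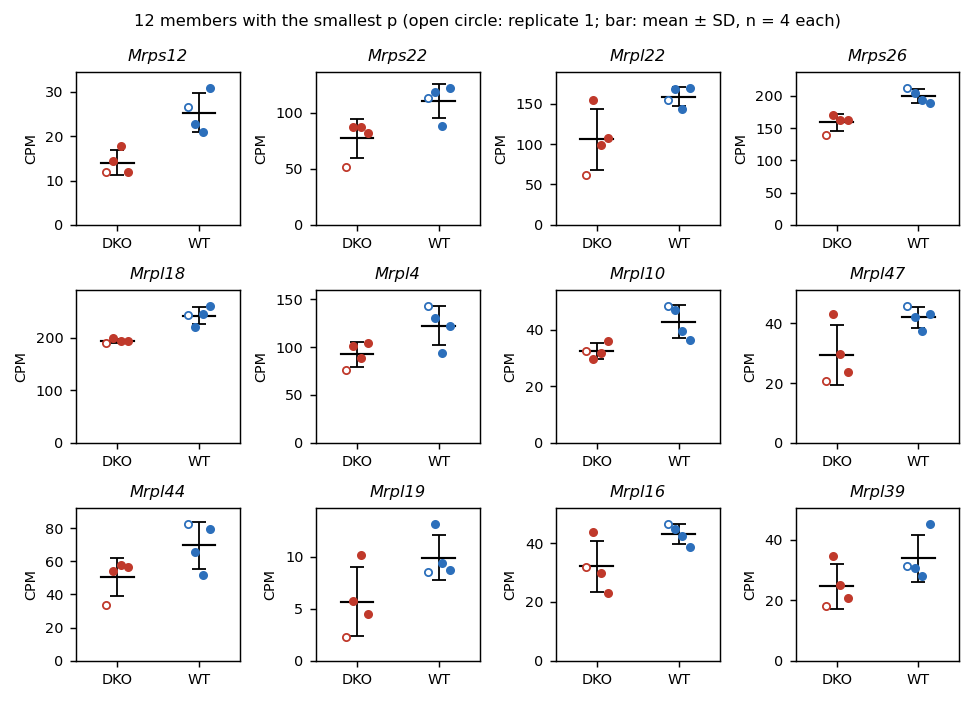
Level (CPM, axis from 0) of the 12 genes with the smallest p in edgeR, in each of 4 DKO and 4 WT pools; open circles are replicate 1 of each genotype, bars the mean and SD. For Mrps12 the DKO pools sit at 11.97 to 17.8 CPM, below every WT pool; for Mrpl18 they sit at 190 to 200 CPM, below every WT pool, while for Mrpl19 and Mrpl47 the genotypes overlap.

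On the other side, 11 members had a positive log2 fold change. The one with the smallest p was Mrpl48, a mitochondria-specific protein of the central protuberance, chosen after its values were seen. Mrpl48 had 82.3, 71.1, 66.0 and 56.2 CPM in the DKO pools, against 59.5, 46.7, 48.2 and 63.5 CPM in the WT pools. The groups overlapped, as DKO pool 4 lay below WT pools 1 and 4, and the log2 fold change was 0.34 ± 0.17 (SE, edgeR's adjusted p = 0.494). The exons of Mrpl48 overlap those of Rab6a, and a pseudogene carries a near-identical copy. The most positive log2 fold change, 0.45 ± 0.53 (SE, edgeR's adjusted p = 0.758), belonged to the barely detected Mrpl23.

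The medians of both subunits were slightly negative. Of 49 tested large subunit genes 44 had a negative log2 fold change. Their median was -0.27, and 8 were lower at an unadjusted p under 0.05 (16.3%, against 4.44% of all genes). Of 26 small subunit genes 20 were negative. Their median was -0.26, and 3 were lower at that p (11.5%). Mrps30 and Mrps18a were counted with the large subunit, where their proteins sit. Mrps36, whose protein is now known as a part of the oxoglutarate dehydrogenase complex, was counted with neither, and stood at a log2 fold change of -0.31 ± 0.24 (SE; edgeR's adjusted p = 0.631). Among genes with a bacterial counterpart, 39 of 45 were negative (median -0.29), and among mitochondria-specific genes 25 of 30 (median -0.25). The mitochondria-specific genes of the small subunit had 6 of 10 negative with a median of -0.13, and those of the large subunit 19 of 20 with a median of -0.26; whether these groups differ was not tested.

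The 3 members of the Mrps18 family, paralogues related to bacterial S18, did not pass the test. Mrps18a sits in the large and the others in the small subunit. In the classes above, which were assigned by hand, Mrps18c was counted with a bacterial counterpart, and Mrps18a and Mrps18b as mitochondria-specific. Mrps18a had 13.1, 34.2, 20.7 and 18.9 CPM in the DKO pools, against 21.1, 23.7, 21.5 and 49.9 CPM in the WT pools, and WT pool 4 alone stood well above the rest. Mrps18b had 30.0, 58.2, 45.0 and 41.3 CPM in the DKO pools, against 50.8, 48.3, 43.4 and 70.7 CPM in the WT pools. Mrps18c had 15.2, 30.5, 18.1 and 14.4 CPM in the DKO pools, against 20.2, 23.1, 22.5 and 30.0 CPM in the WT pools. In all 3 paralogues DKO pool 2 was the highest DKO pool and WT pool 4 the highest WT pool, and the genotypes overlapped. Their log2 fold changes were -0.42 ± 0.32 for Mrps18a, -0.29 ± 0.21 for Mrps18b and -0.29 ± 0.25 for Mrps18c (SE, edgeR's adjusted p of 0.62, 0.611 and 0.657). Per kilobase of exons, Mrps18b was at 20.9 CPM in DKO and 25.5 CPM in WT, Mrps18c at 18.2 CPM in DKO and 22.3 CPM in WT, and Mrps18a at 5.89 CPM in DKO and 7.87 CPM in WT. A pseudogene carries a near-identical copy of the Mrps18b transcript, and its exons overlap an antisense gene.

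Levels per length differed far more between members than between genotypes. The highest by the WT mean, as the mean level in CPM per kilobase of exons, were Mrpl41 at 230.2 in DKO and 275 in WT, Mrpl34 at 245 in DKO and 248 in WT, and Mrpl40 at 223 in DKO and 224 in WT. All 3 encode large subunit proteins, and their ranges over the pools overlapped, so their order is not resolved. The lowest tested by the WT mean were Mrps35 at 1.178 in DKO and 1.17 in WT, Mrps5 at 0.126 in DKO and 0.205 in WT, and Mrpl23 at 0.190 in DKO and 0.139 in WT, in the same unit. By the DKO mean Mrpl19, at 1.04, lay below Mrps35. Mrpl23 lines the tunnel exit of the large subunit and Mrps5 the messenger RNA entry of the small subunit, and both had few counted reads in either genotype. Mrps5 has a processed pseudogene, Gm13328, with 98.4% identity over 1019 bases, and reads that fit both can be lost. Mrpl41 also has a near-identical pseudogene copy. None of the 6 differed between genotypes in edgeR: the log2 fold changes were -0.26 ± 0.16 for Mrpl41, -0.02 ± 0.15 for Mrpl34, -0.01 ± 0.15 for Mrpl40, 0.01 ± 0.25 for Mrps35 and -0.70 ± 0.53 for Mrps5 (SE, adjusted p from 0.552 to 0.992). The sign of Mrpl34, Mrpl40 and Mrps35 turned under other settings.

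**Figure D3:**
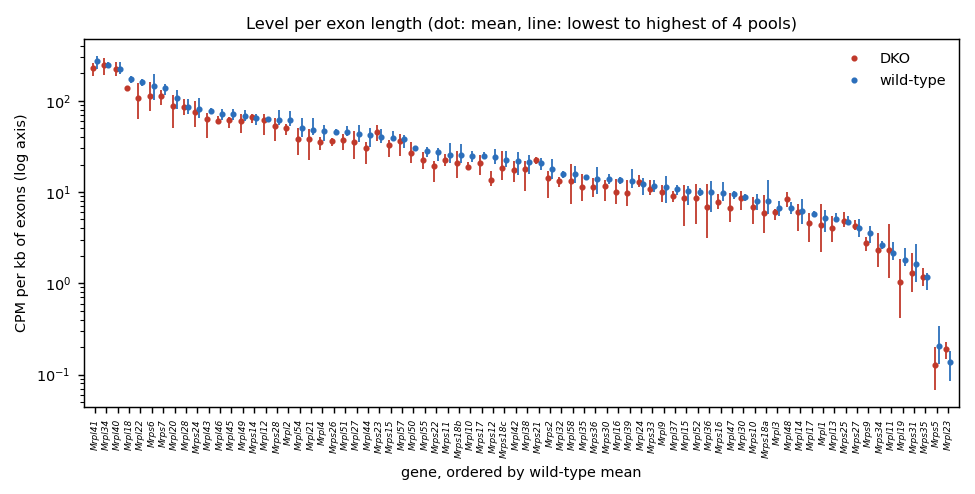
Level in CPM per kilobase of exons (log axis) of each tested gene, ordered by the WT mean; dots are the means of 4 DKO (red) and 4 WT (blue) pools and lines run from the lowest to the highest pool. Most levels lie between about 1 and 275, while the means of Mrps5 and Mrpl23 lie between 0.126 and 0.205 in both genotypes.

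Summed over all 77 members, mitochondrial ribosomal protein transcripts took 0.425%, 0.605%, 0.529% and 0.511% of the counts in the DKO pools, against 0.571%, 0.594%, 0.551% and 0.616% in the WT pools. DKO pool 2 exceeded 3 of the 4 WT pools, and the other DKO pools lay below all of them. The mean was 0.517% ± 0.0738 in DKO, or 0.548% without pool 1, and 0.583% ± 0.0283 in WT (SD, n = 4 each). DKO pool 1 held the lowest of the 8 values for 55 of the 76 tested members (72.4%, against 25.1% of all tested genes). WT pool 4 held the highest for 31 (40.8%, against 17.5% of all tested genes). The same pools stood out in the cytosolic ribosomal proteins, where DKO pool 1 was lowest for 72 of 81 genes and WT pool 4 highest for 71 of 81. The mitochondrial genome took 6.38% ± 0.351 of counts in DKO and 7.08% ± 0.945 in WT (SD, n = 4 each), and there DKO pool 1 was not the lowest.

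**Figure D4:**
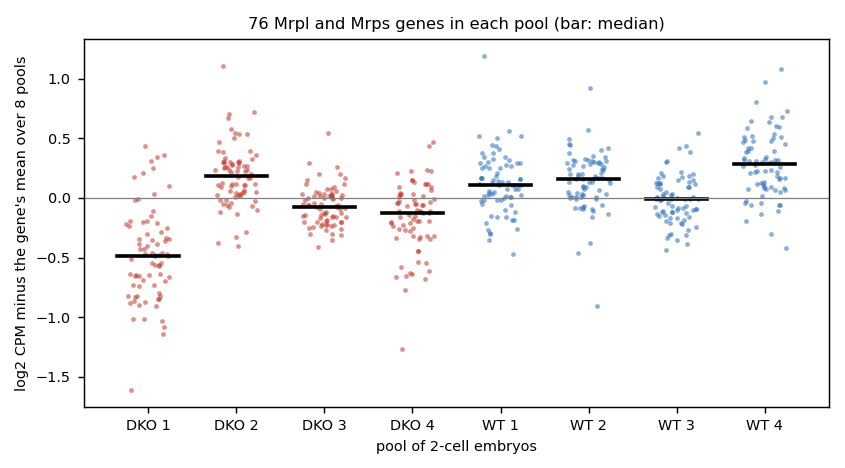
Each dot is 1 of 76 genes in 1 pool, as log2 CPM minus that gene's mean over the 8 pools; bars are medians. The DKO medians lie at -0.48, 0.19, -0.07 and -0.12 and the WT medians at 0.11, 0.16, -0.01 and 0.28, so DKO pool 2 lies among the WT pools.

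Members moved together from pool to pool. Within genotypes, after the group means were removed, the pairwise Pearson's r of log2 CPM over the 8 pools had a median of 0.50 for the 2211 pairs of 67 members with a mean of at least 10 CPM, and 77.9% of pairs were positive. Over all pairs of the 7528 genes at that level the median was 0.0084. Without DKO pool 1 the median among members was 0.33, with 71.5% positive. The pools share library preparation and scaling across genes, so these values are a description. The median SD of log2 CPM among members was 0.35 in DKO, 0.20 in DKO without pool 1 and 0.23 in WT, against 0.37, 0.27 and 0.33 over all tested genes.

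Many mitochondrial ribosomal protein genes start close to another gene on the opposite strand, and the log2 fold changes of these neighbours centred near 0. Starts lay within 1000 bases in 23 such pairs, and in 22 both genes were tested. Of these members 21 had a negative log2 fold change, and of their partners 10, with a median of 0.05 among partners. The partner of Mrps12 is Sars2, which charges mitochondrial transfer RNA with serine and starts 172 bases away. Sars2 had 7.64, 8.25, 10.03 and 14.0 CPM in the DKO pools, against 8.11, 10.1, 9.37 and 11.0 CPM in the WT pools. The genotypes overlapped throughout (log2 fold change 0.05 ± 0.25, SE, edgeR's adjusted p = 0.952). Of the 22 partners 1 was lower at an unadjusted p under 0.05, a share close to the 4.44% of all genes. At that p 0 partners were higher, against 5.8% of all genes. The lower one was Apba3 beside Mrpl54, with starts 26 bases apart (log2 fold change -1.27 ± 0.38, SE, edgeR's adjusted p = 0.469). This pair lies near a knocked-out gene, as Mrpl54 is 0.333 Mb from Gadd45b, and the part of that position was not tested. Sars2, Apba3 and this comparison were chosen after values were seen, and the difference between members and partners was not tested.

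The members nearest the knocked-out genes were Mrpl54, 0.333 Mb from Gadd45b on chromosome 10, and Mrpl35, 4.776 Mb from Gadd45a on chromosome 6, both of the large subunit. Mrpl54 had 21.2, 41.2, 31.5 and 32.6 CPM in the DKO pools, against 42.6, 33.1, 35.4 and 53.4 CPM in the WT pools. Mrpl35 had 33.4, 65.2, 51.4 and 41.6 CPM in the DKO pools, against 63.6, 60.1, 57.3 and 60.1 CPM in the WT pools. For both, DKO pool 2 lay within or above the WT range. The log2 fold changes were -0.38 ± 0.22 for Mrpl54 and -0.33 ± 0.19 for Mrpl35 (SE, edgeR's adjusted p of 0.534 and 0.538) beside the members' median of -0.27.

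Proteins of the mitoribosome with other symbols were set beside them. Gadd45gip1, a large subunit protein at the tunnel exit that was named for binding GADD45 proteins, had 14.6, 29.2, 27.0 and 24.04 CPM in the DKO pools, against 34.3, 29.2, 24.3 and 44.2 CPM in the WT pools. The genotypes overlapped, and the log2 fold change was -0.48 ± 0.24 (SE, edgeR's adjusted p = 0.494). Of the 5 such genes 4 were negative, with a median of -0.24. Ptcd3, an RNA-binding small subunit protein, had -0.38 ± 0.17 (SE, edgeR's adjusted p = 0.48), Chchd1 -0.24 and Aurkaip1 -0.19. Dap3, a GTP-binding small subunit protein, was the exception at 0.37 on the log2 fold change scale. The ribosomal RNAs of the mitoribosome, as far as poly(A) selection kept them, averaged 550.2 CPM in DKO and 562 CPM in WT for mt-Rnr1, and 4428 CPM in DKO and 4915 CPM in WT for mt-Rnr2. Their log2 fold changes were -0.03 for mt-Rnr1, whose sign turned under other settings, and -0.15 for mt-Rnr2.

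The rest of the mitochondrial translation pathway was described from lists of known genes. Among 28 genes of mitoribosome assembly 24 had a negative log2 fold change (median -0.31). Lower at an unadjusted p under 0.05 was 1 of them (3.57%, against 4.44% of all genes). Rpusd4, a pseudouridine synthase of the large ribosomal RNA, had the smallest p there (log2 fold change -0.52 ± 0.23, SE, edgeR's adjusted p = 0.476). Among 20 translation factors 15 were negative, with a median of -0.26 and 3 lower at that p (15%). Mtfmt, which formylates the initiator methionyl transfer RNA, had the smallest p of these (-0.62 ± 0.23, SE, edgeR's adjusted p = 0.469). Among 18 mitochondrial transfer RNA synthetases 13 were negative, with a median of -0.16 and 2 lower at that p (11.1%). Rars2, which charges arginine, had 6.65, 17.0, 13.0 and 12.4 CPM in the DKO pools, against 22.4, 32.5, 13.2 and 30.9 CPM in the WT pools. WT pool 3 lay among the DKO pools, and the log2 fold change of Rars2 was -1.01 ± 0.31 (SE, edgeR's adjusted p = 0.469).

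Among 30 genes of mitochondrial DNA and RNA upkeep 23 were negative, with a median of -0.18. Lower at that p was 1 (3.33%, against 4.44% of all genes). It was Fastkd3, an RNA-binding protein of mitochondria (-0.37 ± 0.16, SE, edgeR's adjusted p = 0.479). A further list of 14 tested genes held regulators of mitochondrial genes together with mitochondrial proteases (Clpp, Clpx, Lonp1) and chaperones (Hspd1, Hspe1). Of these 14 genes 8 were negative, with a median of -0.02 and 0 lower at that p. Clpp, a protease of the matrix, had the smallest p (-0.42 ± 0.21, SE, edgeR's adjusted p = 0.493). The regulators alone were not summarised. No gene of these lists passed edgeR or DESeq2. Cytosolic ribosomal proteins, which build the ribosomes outside mitochondria, had 74 of 81 genes negative but a smaller median of -0.15, and 1 was lower at an unadjusted p under 0.05 (1.23%). The nuclear-encoded respiratory chain, which works beside the products of the mitoribosome, had 68 of 83 genes negative with a median of -0.18, and 10 lower at that p (12%). Differences between these lists and the members were not tested.

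**Figure D5:**
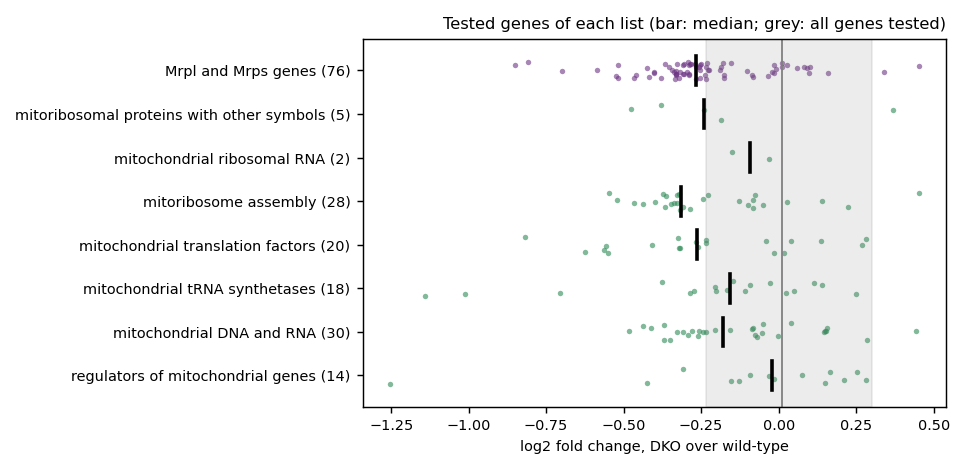
Log2 fold change (DKO over WT) of each tested gene by list, with the number of genes in brackets; bars are medians, the grey band runs over the middle of all tested genes (quartiles) and the grey line is their median. The members' median is -0.27 and that of mitoribosome assembly -0.31. The list labelled regulators, which also holds proteases and chaperones, has a median of -0.02.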

How the data were processed

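The authors deposited whole-number read counts for each gene, with no normalization, as a separate table for every library. The submitters' processing notes name STAR 2.5.2b, featureCounts 1.5.1, DESeq2 1.18.1, bcl2fastq 2.19.1 and FastQC 0.11.5, and the builds mm9 and NCBIM37. The sources used here do not say how strand and multiply mapping reads were treated. The test on the counts was edgeR's robust quasi-likelihood test (edgeR 4.0.16, R 4.3.3; filterByExpr, TMM, no covariates), with Benjamini-Hochberg adjustment over all 14970 genes and a threshold of 0.05. CPM values were scaled by TMM, and their logarithms took a prior count of 2. Alternatives used DESeq2 1.42.0, limma 3.58.1 (voom), other scalings, filters, covariates and left-out libraries. Tests were checked on simulated data, in which genes varied independently and changed genes differed by larger folds than the members did. That check does not cover small differences shared by genes that vary together.

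Symbols matched 32620 of 37310 identifiers. Gene types, exon lengths, overlaps and distances came from GENCODE M21 and promoters from RefSeq, both on GRCm38, while the counts used an older build. Near-identical copies share 95% identity over 200 bases, and 41 tested members had neither such a copy nor exon overlap.

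Members and lists were chosen with earlier results of these data known. Named members were those passing a test, up to 10 per direction by unadjusted p, the 3 highest and 3 lowest per length by WT mean, the Mrps18 paralogues and those within 10 Mb of a target. From each list the gene with the smallest p was named. Pools are separate litters. Reads carry no molecular identifiers, so counts are not molecules.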

Additional observations from a re-analysis of the deposited data

Results flagged for a closer look

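Of 92 groups of 4 pools examined, 6 held a pool set off from the other 3 by a gap above Dixon's 95% critical value, where chance gives about 1 in 20. DKO pool 1 was low for Mrps22, at 51.2 CPM, and for Mrpl44, at 33.6 CPM. WT pool 1 was low for Mrps35, at 7.20 CPM, and high for Aurkaip1, a small subunit protein, at 94.1 CPM. WT pool 4 was high for Mrps18a, at 49.9 CPM, and for the cytosolic ribosomal proteins, which took 1.56% of its counts.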

How the results depend on the processing

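With 4 pools a genotype and a median 95% half-width of 0.43 on the log2 scale, small differences of single members could not be resolved. Of the summary values over alternatives, 114 stayed close to the reported one and 19 moved, and of the named genes' values 600 kept direction and side of the threshold. DESeq2 called 1 member lower, against 0 in edgeR, and 47 of all genes against 4 (7 without a filter on low counts, 1 with a mean of at least 10 CPM). Leaving out 1 pool at a time, 4 to 24 members were lower at an unadjusted p under 0.05 and 0 to 1 higher. The lower ones made up 5.26% to 31.6% of members, against 2.91% to 6.20% of all genes. The number lower was 7 with library size alone (9.21%, against 3.33%) and 4 without both pools numbered 1 (5.26%, against 2.75%). With voom, library size alone, a mean of at least 10 CPM or embryos per pool as a covariate, 1 was higher. The 41 members without exon overlap or a near-identical copy, an alternative chosen after seeing the data, had 34 negative, a median of -0.26 and 4 lower at that p. Under the scalings the members' median stayed between -0.28 and -0.22, and that of all genes moved by at most 0.05.

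Signs near 0 turned, and the cause was not tested. Mrpl34 had a log2 fold change of 0.0495 with voom, 0.0357 with library size alone, 0.0132 with a mean of at least 10 CPM and 0.0828 without both pools numbered 1, and -0.11 to 0.0771 with 1 pool left out. In the same order Mrpl40 had 0.0262, 0.0475, 0.0246 and 0.0443, and -0.11 to 0.0808. Mrps35 had -0.0012 with DESeq2, -0.13 with voom, -0.0013 with RLE and -0.18 without both pools numbered 1, and -0.13 to 0.11 with 1 pool left out. The small ribosomal RNA mt-Rnr1 had 0.0204 with library size alone, 0.0024 with a mean of at least 10 CPM and 0.0262 with embryos per pool, and -0.13 to 0.0665 with 1 pool left out. Calls gained with DESeq2 were Mrps12 and Gadd45a (log2 fold change -1.10, adjusted p = 0.000899, against 0.303 in edgeR and at most 0.614 over 18 alternatives). By longest transcript the 3 highest members per length were the same 3, and 2 of the 3 lowest were shared.

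The deviations of same-numbered DKO and WT pools from their group means correlated at 0.0024, 0.02, 0.03 and 0.08 across genes. DKO pool 1 correlated best with WT pool 3. Whether same-numbered pools share more than a number cannot be told from these values, and the main test used no pairing. With the replicate number as a block, 66 members were negative, the median was -0.29 and 0 passed the adjusted threshold. In that fit 9 were lower at an unadjusted p under 0.05 (11.8%, against 4.65% of all genes).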
